A study of Mus musculus with 12 samples.

Results

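The transcriptional response to TGF-β was measured in wild-type (WT) mouse mesangial cells (MMC) by comparing 3 serum-depleted libraries (WT-SD) with 3 libraries of cells given TGF-β at 10 ng/ml for 24 h (WT-TGF). These 6 RNA-seq libraries are 6 of the 12 in the series. The other 6 come from MMC of the lncMGC-KO5 line under both treatments (KO-SD and KO-TGF, 3 libraries each), in which CRISPR-Cas9 removed a short stretch at the start of the gene of the long non-coding RNA lncMGC in embryos of C57BL/6J mice. For the WT cells the labels name no edited allele and no transgene, and the strain of the WT mice and the ages are not given in the sources used here. MMC are primary cultures from pooled glomeruli, sieved from kidney cortex and grown in RPMI medium with fetal bovine serum, so each library averages over the cells of a culture, and fewer cells of a type cannot be told apart from less RNA per cell. The labels do not say how many mice gave the cultures. The p-values therefore measure the spread between libraries of a group, which may be technical. This spread was estimated from all 12 libraries, with a common coefficient of variation beyond counting error of 0.027.

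Mesangial cells are contractile pericytes that hold the capillary loops of the glomerulus and lay down the matrix between them. TGF-β binds a pair of receptor kinases that phosphorylate SMAD2 and SMAD3, which join SMAD4, enter the nucleus and act with other factors on target genes. In diabetic kidney disease it is a main driver of mesangial matrix accumulation, and in culture it is also known to restrain proliferation and inflammatory genes.

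The WT-SD libraries held between 20063325 and 21048118 counts on genes and the WT-TGF libraries between 20689625 and 22827706. Levels are given as CPM, counts relative to the library total with library sizes scaled by TMM (a scaling that assumes that most genes do not change), as a value per library or as mean ± SD (n = 3). Differences are log2 fold changes of WT-TGF over WT-SD with their standard error, and the adjusted p comes from the quasi-likelihood test of edgeR on 11530 genes. Reads that overlapped no gene in the count tables made up 15.2% to 15.4% of WT-SD libraries and 12.2% to 12.5% of WT-TGF libraries, and their part in the results was not tested. Of 18 mesangial and pericyte markers, 14 passed the filter on low levels, with vimentin (Vim), Acta2 and the PDGF receptor Pdgfrb the highest. The summed level of the 18 was 4214 to 4352 CPM in WT-SD and 7006 to 7192 CPM in WT-TGF. Vim and Acta2 made up most of this sum. Vim had 1874, 1897 and 1910 CPM in WT-SD and 3101, 2999 and 3053 in WT-TGF. Of the 14 tested, 7 were higher and 6 lower with TGF-β, Notch3 and Serpine2 among the latter, so the markers did not rise as a set. Several other markers of the list were low. Itga8 had 3.088, 2.851 and 2.595 CPM in WT-SD, and Gata3 had 3.759, 3.999 and 4.117. Agtr1a and Thy1 had no count in the WT-SD libraries, and the renin gene Ren1 had none in any WT library.

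TGF-β changed the level of most expressed genes, mostly by small amounts. At FDR <5%, 8372 of 11530 genes (72.6%) differed, 4497 of them higher (39%) and 3875 lower (33.6%) with TGF-β. In 69.1% of the called genes the fold change was under 1.5, and the median size of their log2 fold change was 0.39 (either sign). With the further limit of fold change >2, 501 genes rose (4.35%) and 628 fell (5.45%). Beyond 4-fold, 143 rose and 125 fell, and beyond 8-fold, 66 rose and 27 fell. The genes that rose over 2-fold took 3.86% to 3.88% of the counts of WT-SD libraries and 10.1% to 10.4% of those of WT-TGF libraries, whereas the genes that fell took 3.88% to 3.92% and 1.29% to 1.34%. The split between higher and lower depends on this scaling. With library size alone the median of all genes moved by -0.19 on the log2 scale and the split became 2642 higher and 6056 lower, so small changes are read relative to the other genes. Because so many genes passed the test, the counts for a gene group are to be read against these shares for all genes, and its median against that of all genes, a log2 fold change of 0.024. For many groups the counts under library size alone are given too, higher first unless stated.

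**Figure D1:**
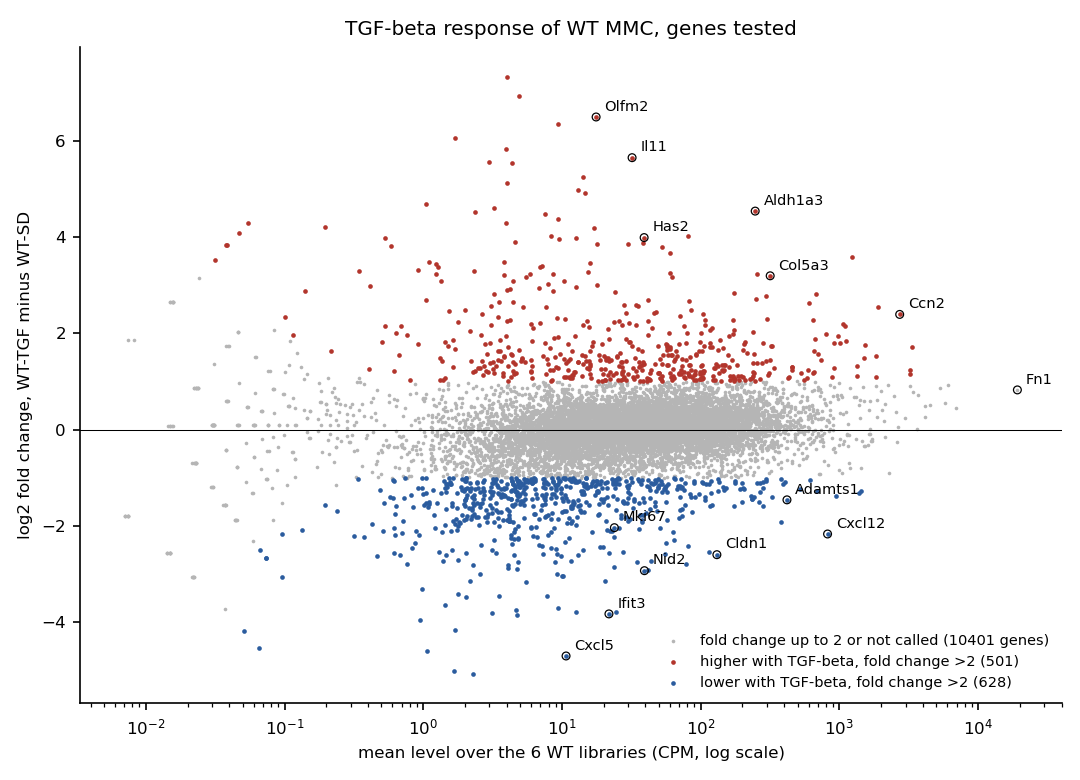
Each point is one of the 11530 genes tested, with its mean CPM over the 6 WT libraries on a log axis and its log2 fold change with TGF-β on the other axis. Red points (501 genes) rose and blue points (628 genes) fell over 2-fold at FDR <5%, grey points are all others, and ringed genes are named. Large rises and falls are seen over a wide range of levels, with Olfm2 and Il11 in the middle, Ccn2 toward the right and Fn1 at the far right.

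The largest rises were mostly in genes with low levels in serum-depleted cells. Rises and falls are ranked here only over genes that passed FDR <5%, whose groups did not overlap and whose higher group averaged 5 CPM or more. Il11, a profibrotic cytokine of the IL-6 family (chromosome 7, 4772373 to 4782907 of mm10), had 1.48, 0.979 and 1.30 CPM in WT-SD and 63.8, 59.6 and 65.02 in WT-TGF. All WT-TGF libraries were far above all WT-SD libraries, with a log2 fold change of 5.65 ± 0.087 and an adjusted p of 1.09e-30. Adamtsl2, a microfibril-associated protein of the extracellular matrix, had 0.0447, 0.0851 and 0 CPM in WT-SD and 8.68, 7.03 and 8.37 in WT-TGF. It was next to absent before treatment, with 3 counts in all over the WT-SD libraries, a ratio of 182-fold (95% exact counting interval 61.9 to 885) that covers counting error only. Olfm2, a secreted olfactomedin protein, had 0.358, 0.383 and 0.403 CPM in WT-SD and 36.7, 33.9 and 33.9 in WT-TGF (log2 fold change 6.49 ± 0.12). Aldh1a3, which makes retinoic acid, rose from a higher base. Its levels were 21.7, 19.8 and 19.8 CPM in WT-SD and 496, 461 and 465 in WT-TGF (log2 fold change 4.54 ± 0.040 and adjusted p 1.87e-36). The mitochondrial carrier Ucp2 had 0.582, 0.893 and 0.671 CPM in WT-SD and 27.7, 25.5 and 29.5 in WT-TGF (log2 fold change 5.25 ± 0.12). Under these limits, the other 10 of the 15 largest rises were Cxcr6 (6.93), Acsbg1 (6.35), Ctsw (5.82), Rgcc (5.56), Klhl1 (5.54), F2rl2 (5.12), Cmah (4.97), Col6a3 (4.91), Prg4 (4.61) and the serotonin receptor gene Htr2b (4.47), all as log2 fold changes.

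The largest falls included chemokine, interferon-response and signaling genes. Cxcl5, a neutrophil-attracting chemokine (chromosome 5, 90759298 to 90761625 of mm10), had 22.3, 21.1 and 18.4 CPM in WT-SD and 0.853, 0.896 and 0.594 in WT-TGF, a log2 fold change of -4.704 ± 0.16 (adjusted p 3.48e-22). Wnt16, a Wnt ligand, was read at 45.3, 45.8 and 46.3 CPM in WT-SD and 3.22, 2.73 and 3.96 in WT-TGF, with the groups far apart (log2 fold change -3.797 ± 0.083). Agt, which encodes angiotensinogen, the precursor of angiotensin II, had 8.86, 8.64 and 8.72 CPM in WT-SD and 0.474, 0.403 and 1.09 in WT-TGF (log2 fold change -3.75 ± 0.22). Vegfd, a ligand of the lymphatic VEGF receptor, fell with a log2 fold change of -3.16 ± 0.13 and Efemp1, a fibulin of elastic tissue, with one of -3.16 ± 0.091. The rest of the 15 were Neurl3 (-3.85), Ifit3 (-3.83), Gc (-3.82), Ms4a2 (-3.79), Klhl14 (-3.71), Cacnb4 (-3.46), Ifit3b (-3.46), Arhgap20 (-3.05), Rerg (-3.05) and Tgtp1 (-2.996). Ifit3 with Ifit3b, and Tgtp1, have near-identical copies, so the division of reads among copies is uncertain.

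The label of the treated libraries was set beside 24 genes known from textbooks as TGF-β targets. This list was chosen with earlier results of these data known, so it is no independent check of the label. Of the 24, 23 were higher and 1 lower with TGF-β (95.8% and 4.17%, against 39% and 33.6% of all genes). Among them 13 were higher with fold change >2, against 4.35% of all genes, and the median log2 fold change was 1.36. Ccn2, connective tissue growth factor (chromosome 10, 24595442 to 24598683 of mm10), had 859.8, 886 and 866 CPM in WT-SD and 4631, 4517 and 4556 in WT-TGF (log2 fold change 2.39 ± 0.026 and adjusted p 3.24e-34). Every treated library was several times above every control. The one lower target was Snai2, which encodes the repressor SLUG, with 44.1, 46.5 and 39.96 CPM in WT-SD and 23.4, 23.6 and 22.7 in WT-TGF (log2 fold change -0.904 ± 0.059). Its relative Snai1 rose, with a log2 fold change of 2.19 ± 0.12. The smallest rise was that of the latent TGF-β binding protein gene Ltbp2 (0.18 ± 0.023), which was -0.013 and not called with scaling by library size alone. Thbs1, which can release active TGF-β from its latent complex, was already abundant and rose by 0.45 ± 0.021.

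**Figure D2:**
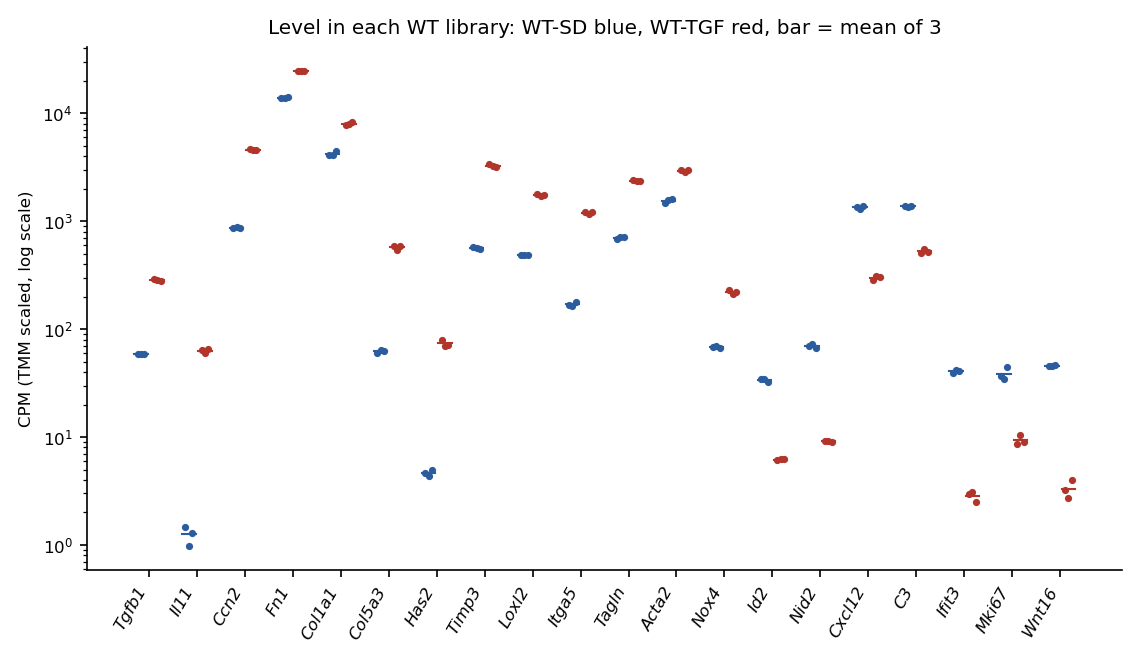
Points are single libraries (WT-SD blue, WT-TGF red, 3 each) and bars their means, in CPM on a log axis, for 20 genes. The rule that named most of these genes required separate groups, and the spread within a group is small beside the gap between groups.

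Genes of the TGF-β pathway itself moved in both directions. Of 17 tested ligands, receptors and latency proteins, 11 were higher and 6 lower (median log2 fold change 0.34). Tgfb1, the gene of the ligand TGF-β1, had 58.6, 58.5 and 58.4 CPM in WT-SD and 289, 284 and 282 in WT-TGF (log2 fold change 2.28 ± 0.030 and adjusted p 1.60e-32). Inhba, whose product forms activin A, rose from 400.3 ± 7.14 to 1782 ± 113 CPM (log2 fold change 2.15 ± 0.045). The type I receptor gene Acvr1 rose (1.23 ± 0.031), and the coreceptor betaglycan, Tgfbr3, fell from 121 ± 2.42 to 47.9 ± 2.07 CPM (-1.34 ± 0.040). Among 20 SMAD and feedback genes, 10 were higher and 4 lower (7 and 10 with library size alone), with a median of 0.099 that became -0.0895 under scaling by library size alone. Pmepa1, a membrane protein that retains SMADs, had 167, 176 and 162 CPM in WT-SD and 1050, 1037 and 1042 in WT-TGF (log2 fold change 2.63 ± 0.031). The inhibitory Smad7 (0.91 ± 0.036) and the corepressor Skil (1.37 ± 0.033) rose too. Smad9, a SMAD of the BMP branch, went the other way, from 24.1 ± 0.472 to 4.23 ± 0.216 CPM (log2 fold change -2.51 ± 0.082), and Smad6, the inhibitor of that branch, fell by less (-0.67 ± 0.055).

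Most BMP pathway and ID genes fell. Of 18 tested, 11 were lower and 5 higher (median log2 fold change -0.46). Id2, a dominant-negative helix-loop-helix protein and BMP target, had 34.3, 34.4 and 32.2 CPM in WT-SD and 6.07, 6.23 and 6.24 in WT-TGF (log2 fold change -2.44 ± 0.077 and adjusted p 1.03e-22). The BMP antagonist genes Grem1 (-2.02 ± 0.13) and Chrdl1 (-2.59 ± 0.13) fell. Fstl3, a secreted binder of activins, had 10.9, 11.5 and 11.8 CPM in WT-SD and 107, 108 and 109 in WT-TGF, the largest rise of the list (log2 fold change 3.24 ± 0.047).

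Collagen genes of the interstitial matrix rose. Of 10 fibrillar collagen genes tested, 9 were higher and 1 lower (7 and 2 with library size alone), 4 of them higher with fold change >2, with a median log2 fold change of 0.82. Type V collagen, a minor component that helps set fibril diameter, rose. Its chain gene Col5a3 had 59.8, 64.2 and 63.3 CPM in WT-SD and 589.8, 542 and 582 in WT-TGF (log2 fold change 3.19 ± 0.041 and adjusted p 1.10e-32). Col5a1 rose from 1561 ± 30.1 to 5133 ± 8.32 CPM (1.72 ± 0.022). Col1a1, the main chain of type I collagen, had 4136, 4061 and 4431 CPM in WT-SD and 7809, 7990 and 8200 in WT-TGF (log2 fold change 0.93 ± 0.029). Per kilobase of exon (RPKM, from the same scaled counts) Col1a1 was at 1219 in WT-TGF against 605 for Col5a1 and 83.9 for Col5a3, so the chain with the smaller fold change stayed the more abundant. The fall was in Col11a2 (-0.295 ± 0.10 and adjusted p 0.0127), a gene of low level whose call was lost without WT-TGF replicate 1 (adjusted p 0.116). Of 9 other collagens, 6 were higher and 2 lower (6 higher and 3 lower with library size alone). Col6a3 had 1.16, 0.766 and 0.895 CPM in WT-SD and 33.1, 23.2 and 29.1 in WT-TGF, separate groups with a wide spread among treated libraries (log2 fold change 4.91 ± 0.17). Col8a2, a short-chain network collagen, rose from 22.2 ± 1.25 to 141 ± 5.38 CPM (2.67 ± 0.046), while Col14a1 fell (-2.296 ± 0.20). The median of this second list, 0.74, came close to that of all genes once genes of lower level were let in.

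Basement membrane genes were divided, with 8 of 18 higher, 8 lower (7 higher and 11 lower with library size alone) and a median log2 fold change of -0.00589 that lay below or above that of all genes depending on the filter. Type IV collagen chains differed: Col4a3 rose (1.28 ± 0.034), and Col4a5 (-0.93 ± 0.022) and Col4a6 (-1.395 ± 0.043) fell. Nid2, a linker of laminin and type IV collagen, had 68.97, 72.9 and 66.6 CPM in WT-SD and 9.15, 9.18 and 8.96 in WT-TGF (log2 fold change -2.93 ± 0.057 and adjusted p 3.71e-28). The laminin chain gene Lama1 rose from 7.96 ± 0.454 to 20.5 ± 2.22 CPM (1.37 ± 0.081).

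Among 25 elastic fibre and glycoprotein genes 17 were higher and 6 lower, 9 of them higher over 2-fold (median 0.55). Fn1, the gene of fibronectin, had 13810, 13670 and 14100 CPM in WT-SD and 24450, 24380 and 24700 in WT-TGF (log2 fold change 0.82 ± 0.016 and adjusted p 3.08e-28). Per kilobase it stood at 1186 RPKM in WT-SD and 2098 RPKM in WT-TGF, above Ccn2 (1597 RPKM) in treated cells. The matricellular gene Ccn4 (1.95 ± 0.024) and the fibulin gene Fbln2 (1.57 ± 0.031) rose, and Fbln5, needed for elastic fibre assembly, fell from 399 ± 5.42 to 196 ± 5.78 CPM (-1.02 ± 0.031). Of 37 genes for proteoglycans and their synthesis 24 were higher and 9 lower (median 0.47, 21 higher and 14 lower with library size alone). Has2, the enzyme that makes hyaluronan at the cell surface, had 4.61, 4.38 and 4.92 CPM in WT-SD and 79.3, 70.02 and 71.4 in WT-TGF, a rise of 3.99 ± 0.069 on the log2 scale. Versican (Vcan) had 279, 278 and 296 CPM in WT-SD and 1045, 1063 and 1018 in WT-TGF (1.87 ± 0.028), and Xylt1, which starts glycosaminoglycan chains, rose as well (2.21 ± 0.065). The small leucine-rich proteoglycan genes Prelp (-1.91 ± 0.13), Ogn (-1.85 ± 0.064) and Dcn (-1.42 ± 0.11) were named because their falls were among the largest of the list. Other members of that family are not reported here, so no direction is given for the family.

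Enzymes that modify collagen rose for the most part, with 21 of 28 higher, 6 lower and a median log2 fold change of 0.68. Loxl2, which crosslinks collagen, had 488, 483 and 488 CPM in WT-SD and 1771, 1692 and 1741 in WT-TGF (log2 fold change 1.83 ± 0.022). Lox itself rose from 3706 ± 54.5 to 5313 ± 222 CPM (0.52 ± 0.029). The prolyl hydroxylase subunit gene P4ha3 rose (1.56 ± 0.078), P3h2 fell (-1.72 ± 0.11), and Adamts2 (-0.83 ± 0.061) and Adamts14 (-0.77 ± 0.10), which trim procollagen, fell. Matrix proteases were split, 10 of 26 higher and 12 lower (median -0.11). Adamts16 (2.59 ± 0.076) and Adamts12 (1.79 ± 0.027) rose while the aggrecan- and versican-cleaving Adamts1, Adamts5 and Adamts9 fell. Adamts1 had 614, 612 and 617 CPM in WT-SD and 219.5, 236 and 214 in WT-TGF (log2 fold change -1.46 ± 0.030), Adamts5 351, 352 and 355 CPM in WT-SD and 133, 132 and 133 in WT-TGF (-1.41 ± 0.029), and Adamts9 moved by -2.07 ± 0.057. Protease inhibitors were lower in 10 of 16 cases and higher in 4 (median -0.39). Timp3, a matrix-bound inhibitor of metalloproteinases, had 569.8, 567 and 547 CPM in WT-SD and 3350, 3235 and 3172 in WT-TGF (log2 fold change 2.54 ± 0.025 and adjusted p 2.01e-35), and Timp1 rose from 220.3 ± 4.77 to 1065 ± 39.7 CPM (2.27 ± 0.029). Serpinb8 (-1.57 ± 0.079), Serping1 (-1.29 ± 0.15) and the membrane-anchored Reck (-0.72 ± 0.048) fell.

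Smooth muscle contractile genes rose as a group. Of 22 tested, 17 were higher and 5 lower (77.3% and 22.7%, against 39% and 33.6% of all genes), with a median log2 fold change of 0.61. Tagln, the actin-binding protein transgelin, had 687, 709.6 and 709 CPM in WT-SD and 2393, 2344 and 2375 in WT-TGF (log2 fold change 1.76 ± 0.021 and adjusted p 4.35e-33). Acta2, smooth muscle α-actin and a marker of activated mesangial cells, had 1472, 1559 and 1590 CPM in WT-SD and 2964, 2871 and 2985 in WT-TGF (0.93 ± 0.023). Actg2 (1.68 ± 0.059) and calponin Cnn1 (1.55 ± 0.054) rose over 2-fold. Mylk, the myosin light chain kinase, was an exception with 322, 317 and 309 CPM in WT-SD and 169, 180.1 and 167 in WT-TGF (-0.88 ± 0.032), as were the myosin phosphatase subunit gene Ppp1r12b (-0.64 ± 0.039) and desmin, Des (-0.42 ± 0.11).

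Contractile genes are classically controlled by serum response factor, which binds the CArG box, a run of 6 A or T bases between CC and GG. In bases 250 to 1 upstream of the annotated starts (RefSeq, GRCm38.p6, either strand), 4 of the 18 contractile genes with a promoter sequence held one (22.2%). The share was 1.46% of the 9033 tested genes with a promoter sequence, 4.61% of those that rose over 2-fold and 1.04% of those that fell over 2-fold, and 1.47% of all 32851 promoters. The promoters of these 4 genes are shown, since they pair a textbook element with a measured rise, with the CArG boxes in capitals. They are those of Srf itself (chr17:46556163-46556412, minus strand, log2 fold change 0.73), Cnn2 (chr10:79988350-79988599, plus strand, 0.67), Myl6 (chr10:128493010-128493259, minus strand, 0.601) and Myl9 (chr2:156775214-156775463, plus strand, 0.58), whose products are a transcription factor, a calponin and the light chains of myosin. Srf has 2 boxes, at 82 to 73 and 62 to 53 bases before its start, and the others have 1 each, at 56 to 47 (Cnn2), 50 to 41 (Myl6) and 161 to 152 (Myl9).
Srf: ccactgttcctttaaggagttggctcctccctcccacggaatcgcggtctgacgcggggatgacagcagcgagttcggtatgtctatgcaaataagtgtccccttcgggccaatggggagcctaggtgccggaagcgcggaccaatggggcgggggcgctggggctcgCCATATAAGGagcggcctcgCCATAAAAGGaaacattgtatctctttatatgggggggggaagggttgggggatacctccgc
Cnn2: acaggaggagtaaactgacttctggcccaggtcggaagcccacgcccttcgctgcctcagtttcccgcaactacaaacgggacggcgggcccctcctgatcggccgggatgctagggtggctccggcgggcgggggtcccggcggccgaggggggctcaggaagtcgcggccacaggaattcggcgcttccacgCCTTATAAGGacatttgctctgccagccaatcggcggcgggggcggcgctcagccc
Myl6: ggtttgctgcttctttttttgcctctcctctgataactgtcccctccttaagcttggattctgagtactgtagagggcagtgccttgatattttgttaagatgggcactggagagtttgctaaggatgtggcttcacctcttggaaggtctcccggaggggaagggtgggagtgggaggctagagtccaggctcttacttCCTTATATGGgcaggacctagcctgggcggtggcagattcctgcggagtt
Myl9: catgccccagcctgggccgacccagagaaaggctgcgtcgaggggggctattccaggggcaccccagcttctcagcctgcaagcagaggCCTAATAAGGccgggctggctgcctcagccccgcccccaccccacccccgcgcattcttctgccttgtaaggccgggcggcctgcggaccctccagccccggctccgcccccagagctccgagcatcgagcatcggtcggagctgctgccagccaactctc

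All 4 genes were among the 17 that rose, and none passed 2-fold. Tagln and Actg2, which rose over 2-fold, had no promoter sequence and could not be searched. Acta2 and Cnn1 held no exact match to these letters, and CArG boxes that depart from them were not searched. A match in these letters is a description of the sequence and was not read as a bound site. Of other elements searched on either strand, the TEAD box GGAATG was in 44.4% of the contractile promoters and 12.5% of all tested ones. It was in 43.8% of the promoters of a list of YAP and TEAD factors, regulators and targets. The share was 15.3% for genes that rose over 2-fold, and 0 of 24 cholesterol and fatty acid promoters held it. The SMAD palindrome (GTCTAGAC) was in 0 of 347 genes that rose over 2-fold, 0 of 479 that fell over 2-fold and 0.255% of all tested. The sterol element (TCACCCCAC) was in 1 of 24 cholesterol and fatty acid promoters and 0.642% of all tested. Within AP-1, early and Kruppel-like genes the AP-1 site TGANTCA was in 3.7% of the promoters, and it was in 10.4% of the genes that rose over 2-fold, 8.98% of those that fell over 2-fold and 5.28% of all tested.

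Focal adhesion genes rose more often than they fell. Of 49 focal adhesion and stress fibre genes, 32 were higher and 12 lower (27 and 18 with scaling by library size alone), with a median of 0.304. Tln2, a talin that links integrins to actin, rose from 52.1 ± 3.20 to 180.5 ± 2.72 CPM (1.79 ± 0.036). Non-muscle myosin Myh10 fell from 828 ± 3.78 to 403 ± 2.84 CPM (-1.04 ± 0.023). Integrin genes moved both ways, 8 of 15 higher and 6 lower (median 0.24, 8 and 7 with library size alone). Their median relative to all genes changed sign with other filters. Itga5, the fibronectin receptor chain, had 165, 164 and 179 CPM in WT-SD and 1214, 1163 and 1213 in WT-TGF (log2 fold change 2.82 ± 0.029 and adjusted p 6.10e-35). Itgb3 (2.08 ± 0.033) and the collagen receptor chain Itga11 (1.73 ± 0.027) rose. The collagen receptor chain Itga1 fell, with 339, 342 and 346 CPM in WT-SD and 126, 132 and 121 in WT-TGF (-1.44 ± 0.033). YAP and TEAD are factors that respond to cell tension. The list called YAP and TEAD targets holds the factors themselves and regulators such as Amot beside targets such as Ankrd1. It was split, 10 of 22 higher and 9 lower (median 0.000888, 9 and 11 with library size alone), with Ankrd1 higher (1.08 ± 0.034) and Amot lower (-1.24 ± 0.031). It is therefore no measure of the targets alone.

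Growth factor genes had many large changes. Of 28 ligand genes 18 were higher and 9 lower (median 0.55), and 14 of the 28 passed 2-fold (10 up, 4 down). Hbegf, which activates the EGF receptor, had 66.2, 65.7 and 66.5 CPM in WT-SD and 436, 421 and 447 in WT-TGF (log2 fold change 2.72 ± 0.031). Pdgfb, a mesangial mitogen, had 14.9, 14.2 and 14.3 CPM in WT-SD and 70.8, 66.5 and 69.1 in WT-TGF (2.25 ± 0.051). Receptor and binding protein genes fell more often than they rose (11 of 20 lower, 7 higher, median -0.11, 6 higher and 14 lower with library size alone), with the receptor tyrosine kinase gene Met lower, from 157 ± 4.97 to 72.1 ± 1.84 CPM (-1.12 ± 0.035) and the VEGF receptor gene Flt1 higher (1.16 ± 0.054). Of 22 vasoactive receptor and RGS genes, 9 were higher and 10 lower (5 and 11 with library size alone), with a median of -0.011. Npr3, the clearance receptor for natriuretic peptides, had 972, 946 and 999.8 CPM in WT-SD and 394, 406 and 395 in WT-TGF (-1.29 ± 0.026). The sphingosine receptor gene S1pr1 fell (-2.26 ± 0.15), and Htr2b, given above, rose. Genes of oxidant production and defence were divided, 16 of 38 each way (11 higher and 21 lower with library size alone), with a median of -0.00288. Nox4, the NADPH oxidase of mesangial cells, rose from 68.3 ± 1.81 to 220.1 ± 9.90 CPM (1.69 ± 0.039), and the glutathione transferase genes Gstm1 (-1.62 ± 0.058, uncertain because it has near-identical relatives), Gstt1 (-1.43 ± 0.15) and Mgst1 (-0.88 ± 0.050) fell.

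**Figure D3:**
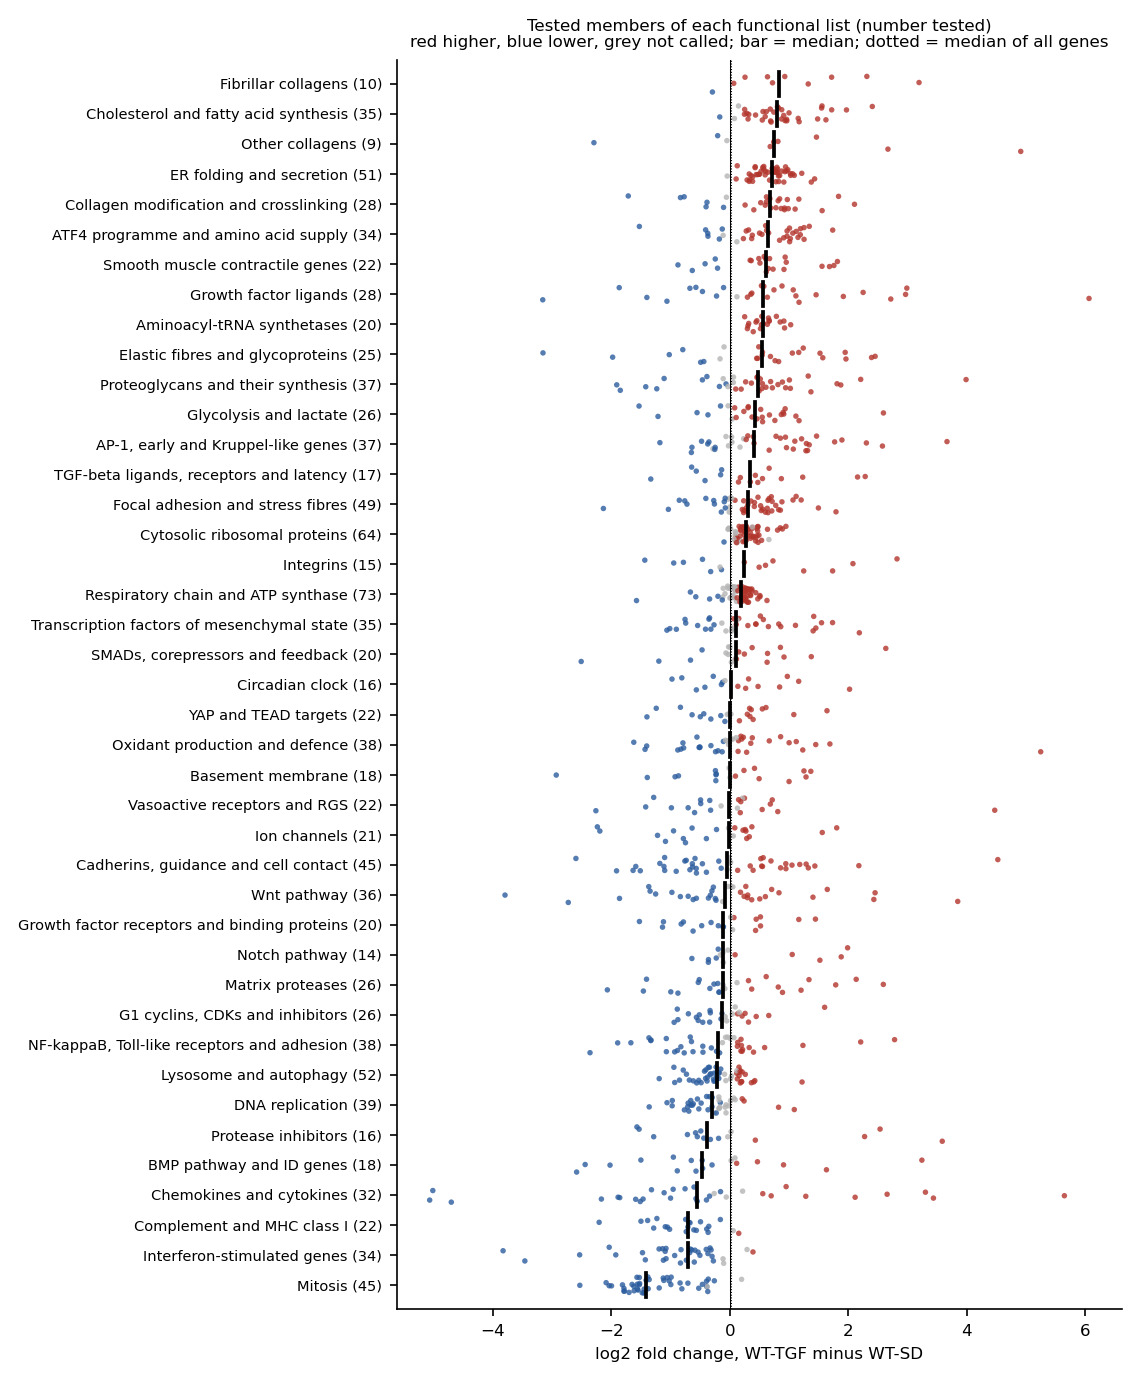
Each point is a tested member of one of 41 functional lists, placed by its log2 fold change with TGF-β (red higher and blue lower at FDR <5%, grey neither). Bars are list medians and the dotted line is the median of all genes. Medians run from 0.82 for fibrillar collagens to -1.42 for mitosis, and most lists hold members on both sides of 0.

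The machinery of protein secretion rose almost without exception. Of 51 ER folding and secretion genes, 50 were higher and none lower, 7 of them over 2-fold, with a median log2 fold change of 0.72. With library size alone 47 were higher and 3 lower. Creb3l2, a transcription factor for secretory cargo transport, had 152, 159.8 and 153 CPM in WT-SD and 399, 406 and 401 in WT-TGF (log2 fold change 1.37 ± 0.027). Pdia5 (1.43 ± 0.050) and Manf (1.21 ± 0.036) rose over 2-fold. All 20 aminoacyl-tRNA synthetase genes were higher (median 0.55, 19 with library size alone), from 0.25 to 1.03 on the log2 scale, led by Gars with 133, 138 and 139.6 CPM in WT-SD and 278, 276 and 282 in WT-TGF (1.03 ± 0.027). Of 34 genes of the ATF4 programme and amino acid supply, 26 were higher and 6 lower, 12 of them higher over 2-fold (median 0.64). Pycr1, which completes proline synthesis, had 7.70, 7.02 and 7.92 CPM in WT-SD and 23.8, 24.6 and 27.04 in WT-TGF (1.74 ± 0.071). The neutral amino acid carrier Slc1a4 (1.34 ± 0.033) and the serine enzyme gene Psph (1.25 ± 0.062) rose over 2-fold. Stc2 fell (-1.53 ± 0.082). Of 64 cytosolic ribosomal protein genes 47 were higher and 1 lower, none over 2-fold (median 0.27), but with library size alone 19 were higher and 3 lower. Many of these genes have processed copies in the genome, which makes their counts uncertain.

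In energy metabolism, 19 of 26 glycolysis and lactate genes were higher and 5 lower (median 0.42). With library size alone the counts were 15 and 8 and the median 0.23. The lactate exporter gene Slc16a3 had 9.62, 9.40 and 10.3 CPM in WT-SD and 58.1, 57.2 and 61.5 in WT-TGF (log2 fold change 2.59 ± 0.055). The glucose transporter gene Slc2a1 (1.17 ± 0.036) and hexokinase Hk2 (1.11 ± 0.038) rose. Ldhb fell from 53.3 ± 1.52 to 18.4 ± 1.60 CPM (-1.53 ± 0.056). Of 73 respiratory chain and ATP synthase genes 45 were higher and 6 lower (median 0.19), a direction that did not hold with library size alone, where 14 were higher and 20 lower.

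Cholesterol and fatty acid synthesis genes rose together. Of 35 tested, 32 were higher and 1 lower, 9 of them over 2-fold, with a median log2 fold change of 0.802. With library size alone 28 were higher and 1 lower. The lower gene was Elovl5, which lengthens polyunsaturated fatty acids, with 95.3, 90.9 and 91.1 CPM in WT-SD and 81.8, 81.5 and 82.8 in WT-TGF (log2 fold change -0.17 ± 0.035 and adjusted p 5.77e-05). Lysosome and autophagy genes leaned the other way, 31 of 52 lower and 16 higher (median -0.22). With library size alone 5 were higher and 36 lower (median -0.41). The glycosidase gene Hexa fell from 232 ± 6.92 to 121 ± 3.17 CPM (-0.95 ± 0.028), and the cathepsin gene Ctsc rose (1.22 ± 0.035).

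Genes of cell division had the lowest median of the 41 functional lists. Of 45 mitosis genes, 43 were lower and none higher, 31 of them over 2-fold, with a median log2 fold change of -1.42. Mki67, the antigen Ki-67 of cycling cells, had 36.7, 34.4 and 44.1 CPM in WT-SD and 8.68, 10.3 and 8.91 in WT-TGF (log2 fold change -2.04 ± 0.079 and adjusted p 2.33e-20). Ccna2, cyclin A2, had 10.8, 10.98 and 13.2 CPM in WT-SD and 3.46, 3.49 and 2.97 in WT-TGF (-1.81 ± 0.11), and the kinetochore gene Cenpf moved by -1.79 ± 0.11. DNA replication genes had smaller changes, 22 of 39 lower and 4 higher, 2 and 1 of them over 2-fold (median -0.299, 2 higher and 29 lower with library size alone). Mcm3, a subunit of the replicative helicase, fell from 11.1 ± 0.748 to 6.49 ± 0.599 CPM (-0.77 ± 0.094), whereas another subunit gene, Mcm6, rose from 30.6 ± 2.09 to 53.97 ± 0.648 CPM (0.82 ± 0.047), as did thymidylate synthase, Tyms (1.09 ± 0.087). Among 26 G1 genes, 13 were lower and 7 higher (median -0.14, 4 higher and 17 lower with library size alone). Cdkn2b, the CDK inhibitor p15 and a known TGF-β target, had 56.5, 63.4 and 62.4 CPM in WT-SD and 94.5, 94.4 and 98.6 in WT-TGF (0.66 ± 0.040). Myc, which TGF-β represses in epithelial cells, had 13.02, 12.8 and 12.98 CPM in WT-SD and 40.4, 38.5 and 38.6 in WT-TGF and was higher in all treated libraries (1.599 ± 0.058). The CHR element TTTGAA, found in many cell cycle promoters, was in 37.8% of the mitosis promoters and 12.5% of all tested. These letters were also in 27.6% of the promoters of interferon-stimulated genes. They were in 21.1% of those of genes that fell over 2-fold and 8.93% of those that rose over 2-fold. The E2F site (TTTCCCGC or TTTGGCGC) was in 19.4% of the DNA replication promoters and 3.03% of all tested.

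**Figure D4:**
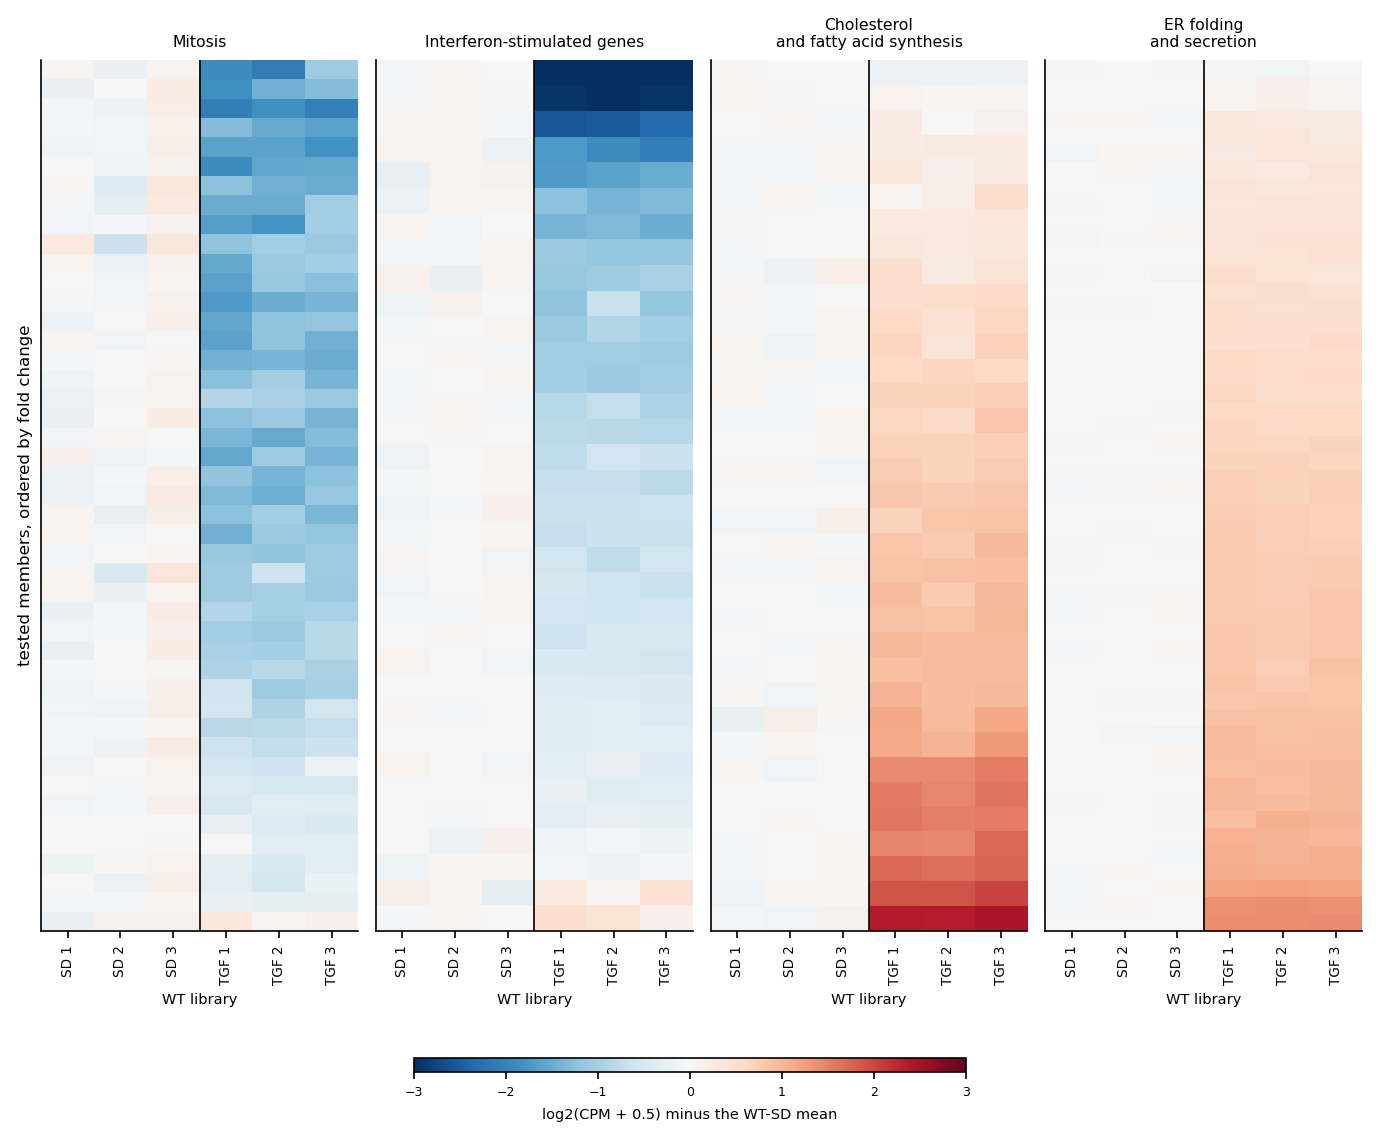
Columns are the 6 WT libraries and rows the tested members of 4 lists in order of fold change, colored by log2(CPM + 0.5) minus the WT-SD mean of that gene (color limits 3 either way). The 3 treated libraries of a gene resemble one another, and the darkest falls are in the interferon-stimulated genes.

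Interferon-stimulated genes, which answer viral RNA through type I interferon, were lower as a group. Of 34 tested, 30 were lower and 1 higher, 13 of them lower over 2-fold, with a median log2 fold change of -0.71. Ifit3 had 39.1, 41.99 and 41.2 CPM in WT-SD and 2.94, 3.09 and 2.52 in WT-TGF (log2 fold change -3.83 ± 0.095 and adjusted p 2.28e-25), and Ifit2 had 48.02, 48.2 and 45.1 CPM in WT-SD and 7.59, 7.84 and 8.96 in WT-TGF (-2.54 ± 0.065). The exception was Isg20, which rose (0.39 ± 0.11), a call that was lost with scaling by library size alone (adjusted p 0.0968). The interferon-stimulated response element (TTTCNNTTTC or TTTCNNNTTTC, either strand, overlapping matches included) was in 14 of the 29 members with a promoter sequence (48.3%), in 7.52% of all genes that fell over 2-fold and in 4.88% of all tested. Ifit2 held no match in these bases, whereas Cxcl10 held one and did not fall (log2 fold change 0.29). The promoters of the 3 members with the element and the largest falls, chosen after their values were seen, are shown because they lie on chromosome 19 and carry more than one match. These are Ifit3 (chr19:34583279-34583528), Ifit3b (chr19:34607707-34607956) and Ifit1 (chr19:34640639-34640888, log2 fold change -1.93 ± 0.18), all on the plus strand, with the elements in capitals.
Ifit3: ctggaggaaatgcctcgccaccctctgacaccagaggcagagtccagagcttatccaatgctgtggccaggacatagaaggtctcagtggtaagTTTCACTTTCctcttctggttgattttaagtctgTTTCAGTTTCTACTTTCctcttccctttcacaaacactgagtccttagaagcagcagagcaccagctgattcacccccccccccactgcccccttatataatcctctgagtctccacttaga
Ifit3b: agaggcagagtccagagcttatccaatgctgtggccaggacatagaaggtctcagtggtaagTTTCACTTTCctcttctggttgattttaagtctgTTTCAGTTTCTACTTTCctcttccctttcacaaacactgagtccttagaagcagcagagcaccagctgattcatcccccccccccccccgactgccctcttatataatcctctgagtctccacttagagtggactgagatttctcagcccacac
Ifit1: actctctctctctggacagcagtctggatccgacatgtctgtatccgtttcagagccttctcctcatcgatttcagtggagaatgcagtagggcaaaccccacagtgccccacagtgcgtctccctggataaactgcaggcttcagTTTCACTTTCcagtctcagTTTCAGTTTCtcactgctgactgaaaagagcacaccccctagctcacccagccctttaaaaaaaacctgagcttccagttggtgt

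Each of the 3 promoters holds TTTCACTTTC before TTTCAGTTTC. In Ifit3 and Ifit3b a further match, TTTCTACTTTC, overlaps the end of TTTCAGTTTC. Macrophages are a possible companion of glomerular cultures, and the summed level of their 16 markers also fell. The sum was 37.2 to 40.4 CPM in WT-SD and 21.1 to 25.2 CPM in WT-TGF. All 16 had a count in some WT library, and 3 of the 4 tested were lower. Some markers of low level went the other way, such as Cx3cr1, with 0.08951, 0.1276 and 0 CPM in WT-SD and 0.6164, 0.672 and 0.2971 in WT-TGF. The part of these cells in the results on interferon and inflammatory genes was not tested.

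Chemokine and cytokine genes had large changes each way. Of 32 tested, 20 were lower and 9 higher (median -0.56), and 18 passed 2-fold (12 down, 6 up). Cxcl12, the chemokine that retains CXCR4-bearing cells, fell, with 1364, 1298 and 1370 CPM in WT-SD and 285, 308 and 303 in WT-TGF (log2 fold change -2.17 ± 0.029 and adjusted p 2.02e-32). Its level per kilobase went from 164 to 36.5 RPKM. The cytokine gene Lif, of the same family as Il11, rose from 16.8 ± 1.03 to 73 ± 4.65 CPM (2.11 ± 0.055), and Tslp fell (-1.89 ± 0.16). Among 38 genes of NF-κB, Toll-like receptors and leukocyte adhesion, 20 were lower and 13 higher (median -0.20). With library size alone 24 were lower and 6 higher (median -0.39). Vcam1, an adhesion molecule for leukocytes, had 93, 92.2 and 97.05 CPM in WT-SD and 18.1, 19.9 and 16.8 in WT-TGF (-2.36 ± 0.052), and Icam1 fell from 18.7 ± 0.904 to 4.998 ± 0.607 CPM (-1.895 ± 0.099). Ptgs2, the inducible cyclooxygenase, went against them with 77.8, 72.5 and 74.3 CPM in WT-SD and 543, 472 and 529 in WT-TGF (2.78 ± 0.044). Complement and MHC class I genes were lower in 20 of 22 cases and higher in 1, 8 of them lower over 2-fold (median -0.701). C3, the central complement component, had 1390, 1361 and 1377 CPM in WT-SD and 508, 547 and 521 in WT-TGF (log2 fold change -1.39 ± 0.028 and adjusted p 8.78e-28), and the immunoproteasome gene Psmb8 fell (-1.502 ± 0.15).

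Transcription factors and signals between cells followed no single direction. Of 37 AP-1, early and Kruppel-like genes 22 were higher and 8 lower (21 higher and 12 lower with library size alone), 13 of them higher over 2-fold (median 0.41). Egr2, an early growth response factor, had 8.10, 8.47 and 9.66 CPM in WT-SD and 111, 109 and 112 in WT-TGF (log2 fold change 3.67 ± 0.051), and the ERK phosphatase gene Dusp4 (2.58 ± 0.060) and the AP-1 subunit gene Fosl1 (2.304 ± 0.099) rose. Among 35 factors of the mesenchymal state, 18 were higher and 11 lower (median 0.11, 15 and 16 with library size alone), with Runx2 (1.73 ± 0.046) and Sox8 (1.55 ± 0.040) up and Prrx1 down, from 239.7 ± 5.84 to 114 ± 4.54 CPM (-1.06 ± 0.038). In the Notch pathway, 5 of 14 genes were higher and 5 lower (4 and 10 with library size alone), with a median of -0.11. The Notch ligand gene Jag1 had 323, 330.1 and 313 CPM in WT-SD and 1321, 1261 and 1247 in WT-TGF (1.99 ± 0.025), its modifier Lfng (1.88 ± 0.058) and the target gene Hey1 (1.52 ± 0.15) rose, and the receptor genes Notch1 (-0.36 ± 0.046) and Notch3 (-0.64 ± 0.041) fell. Wnt genes were split 15 higher and 17 lower of 36 (10 and 21 with library size alone), with a median of -0.0763. The ligand genes Wnt11 (3.85 ± 0.096) and Wnt9a (2.45 ± 0.049) and the antagonist gene Dkk2 (2.43 ± 0.058) rose, and the Wnt amplifier gene Rspo2 fell with Wnt16, from 76.4 ± 5.74 to 11.5 ± 0.880 CPM (-2.73 ± 0.062). Clock genes were split, 8 higher and 7 lower of 16 (median 0.0253, 4 and 8 with library size alone), with Bhlhe40, a repressor of the clock, higher, from 93.6 ± 3.50 to 379.5 ± 2.31 CPM (2.02 ± 0.028) and the output gene Dbp lower (-0.98 ± 0.047).

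Of 21 ion channel genes 9 were higher and 10 lower (5 and 12 with library size alone), with a median of -0.0236. Piezo2, a mechanically gated channel, had 449, 448 and 452 CPM in WT-SD and 1587, 1606 and 1512 in WT-TGF (log2 fold change 1.803 ± 0.025), and Kcnma1, the large-conductance potassium channel that relaxes mesangial cells, fell from 38.9 ± 2.02 to 8.22 ± 0.410 CPM (-2.24 ± 0.075). Of 45 genes for cadherins, guidance and cell contact 22 were lower and 18 higher (median -0.0441, 17 higher and 28 lower with library size alone). Cldn1, a tight junction protein of the parietal epithelium, had 231, 225 and 218 CPM in WT-SD and 37.3, 37.01 and 36.8 in WT-TGF (log2 fold change -2.60 ± 0.042 and adjusted p 4.57e-30), and Cdh10 rose (2.18 ± 0.058).

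Markers of other kidney cells moved with the treatment. The tubular and parietal epithelial list, led by Pax8, Cldn1 and Lrp2, summed to 535.8 to 554.2 CPM in WT-SD and 180.4 to 196 CPM in WT-TGF over its 17 genes, and all 6 tested members were lower, 4 of them over 2-fold. On this list Slc34a1, Aqp2 and Umod had no count in any WT library, but other tubule markers were present. Cdh16 had 26.72, 29.23 and 25.1 CPM in WT-SD and 6.685, 6.675 and 5.1 in WT-TGF. Lrp2 had 40.91, 43.57 and 41.21 CPM in WT-SD and 11.43, 11.96 and 11.83 in WT-TGF. Some markers of low level went the other way, such as Cubn, with 2.775, 2.638 and 3.445 CPM in WT-SD and 5.974, 5.69 and 4.159 in WT-TGF. The 16 podocyte markers summed to 1266 to 1280 CPM in WT-SD and 2120 to 2183 CPM in WT-TGF. Nestin (Nes) was the highest of them and rose (1.801 ± 0.025). It had 396, 411.9 and 407.2 CPM in WT-SD, where other markers made up most of the sum, and 1453, 1371 and 1410 in WT-TGF. Synpo came next in WT-SD, with 248, 239.1 and 239.7 CPM. Of the 11 tested, 3 rose and 8 fell, Npnt and Wt1 among the latter. The podocyte-defining nephrin gene, Nphs1, was at 0 or next to it in each WT library, at most 0.0474 CPM. The 16 endothelial markers summed to 54.1 to 56.3 CPM and 69.1 to 73.8 CPM with no count of Cdh5, Sox17 or Cldn5. The part of these cells in the results was not tested.

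The response was set beside that of the libraries labelled KO. The difference between responses (KO minus WT) was tested for each gene and was below 0 at FDR <5% for 18.6% of all genes and above 0 for 7.61%. Of the 45 mitosis genes it was below 0 for 40 and above 0 for none, with a median log2 fold change of -1.42 in WT and -2.54 in KO. Of the 39 DNA replication genes it was below 0 for 31 and above 0 for 2 (medians -0.299 and -0.95). Mki67 fell by a log2 fold change of -2.04 in WT and -3.13 in KO (difference -1.09, adjusted p 4.26e-09). In cholesterol and fatty acid synthesis the difference was above 0 for 29 of 35 genes and below 0 for 1 (medians 0.802 and 1.199). Of 25 elastic fibre and glycoprotein genes it was below 0 for 18 and above 0 for 2. Fn1 rose by 0.82 in WT and 0.51 in KO (difference -0.31, adjusted p 1.68e-12). The difference did not pass the test for Tgfb1 (-0.0317), Il11 (-0.15), Ptgs2 (0.028) or C3 (0.0325).

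**Figure D5:**
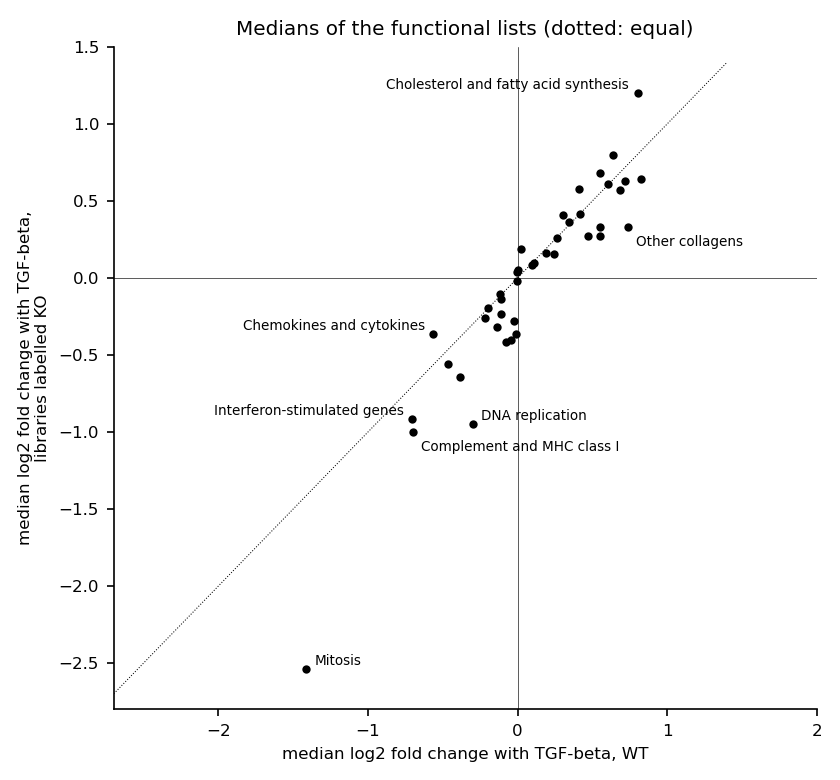
Each point is a functional list, with the median log2 fold change with TGF-β of its tested members in WT on the horizontal axis and in the libraries labelled KO on the vertical axis. The dotted line marks equal medians, with mitosis and DNA replication below it and cholesterol and fatty acid synthesis above it.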

How the data were processed

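The series holds 12 RNA-seq libraries made from mRNA of MMC, and the 6 WT libraries (3 WT-SD, 3 WT-TGF) are described here. Per the study's methods, the authors used TopHat to place single-end reads on mm10 and HTSeq-count for strand-aware counting on RefSeq genes. The deposited files hold these raw counts, one file per library, and rows for reads given to no gene were left out of library sizes.

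Counts were scaled by TMM and tested with the quasi-likelihood test of edgeR 4.0.16 (R 4.3.3) in one fit of all 12 libraries with a mean per group, for 11530 genes with RPKM >1 in at least 1 library, and Benjamini-Hochberg adjusted p-values (FDR <5%). The difference between KO and WT responses was a contrast of the same fit. The procedure was checked on simulated counts. Alternatives were scaling by library size, DESeq2 1.42.0 and its size factors, other filters, only the WT libraries, a replicate block and leaving out each WT library.

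Genes named were the 15 largest rises and falls, the 3 largest each way in each list (FDR <5%, at least 5 CPM in the higher group, no overlap), textbook TGF-β targets and the highest markers. Genes whose promoters are shown, and Wt1, were named outside this rule after their values were seen. Some genes that this rule names are not reported here. Members and lists were chosen with earlier results of these data known. Promoter sequences are from RefSeq (GRCm38.p6), and a gene was counted if any of its annotated starts held a motif.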

Additional observations from a re-analysis of the deposited data

Results flagged for a closer look

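Among the 177 genes named, the response to TGF-β differed between WT and the libraries labelled KO in 101 cases. This is by the test of the difference itself (edgeR, adjusted over all genes). Over all genes tested the difference was below 0 at FDR <5% for 18.6% and above 0 for 7.61%. Most named genes were picked by their WT fold change, which enters the difference, so the 101 is not a result about them. What follows is the KO minus WT difference in log2 fold change. For genes that rose in WT it was below 0 for Adamts12 (-0.92), Bhlhe40 (-0.12), Ccn2 (-0.13), Cdh10 (-0.45), Col1a1 (-0.25), Col4a3 (-0.67), Col6a3 (-2.15), Col8a2 (-1.52), Ctsc (-0.24), Cxcr6 (-2.65), Fbln2 (-0.43), Flt1 (-0.82), Fn1 (-0.31), Fstl3 (-0.72), Hey1 (-0.96), Htr2b (-1.92), Itga11 (-0.57), Jag1 (-0.19), Lfng (-0.73), Lif (-0.26), Loxl2 (-0.24), Manf (-0.16), Mcm6 (-1.05), Myc (-0.51), P4ha3 (-0.85), Pdgfrb (-0.202), Piezo2 (-0.98), Pmepa1 (-0.33), Pycr1 (-0.45), Rgcc (-2.34), Runx2 (-0.22), Slc16a3 (-0.69), Slc1a4 (-0.32), Tagln (-0.17), Thbs1 (-0.18), Tyms (-0.77) and Vcan (-0.79). For genes that fell in WT it was below 0 for Adamts1 (-0.87), Adamts2 (-0.42), Adamts5 (-0.42), Amot (-0.37), Cacnb4 (-2.34), Ccna2 (-1.14), Cenpf (-1.24), Col4a5 (-0.17), Col4a6 (-0.26), Cxcl12 (-0.700), Cxcl5 (-2.56), Elovl5 (-0.16), Fbln5 (-1.07), Gstm1 (-1.04), Gstt1 (-0.999), Hexa (-0.301), Id2 (-0.84), Itga1 (-0.33), Kcnma1 (-0.897), Klhl14 (-0.95), Mcm3 (-0.92), Mgst1 (-1.09), Mki67 (-1.09), Mylk (-0.998), Neurl3 (-2.13), Nid2 (-0.47), Notch1 (-0.44), Notch3 (-0.48), Ogn (-0.77), P3h2 (-0.63), Pax8 (-0.31), Prelp (-2.05), Prrx1 (-1.41), Psmb8 (-0.97), Reck (-0.42), Rspo2 (-0.41), Serpinb8 (-0.65), Serping1 (-1.35), Tgfbr3 (-0.21), Tgtp1 (-1.02), Vcam1 (-0.28), Vegfd (-0.702) and Wt1 (-0.596). It was above 0 among genes that rose in WT for Actg2 (0.29), Aldh1a3 (1.32), Ankrd1 (0.59), Cdkn2b (0.73), Cmah (1.27), Col5a1 (0.098), Col5a3 (0.32), Hbegf (0.299), Isg20 (0.44), Itga5 (0.27), Ltbp2 (0.72), Nes (0.17), Pdgfb (1.12), Sox8 (0.27), Timp1 (0.26) and Timp3 (0.17). Among genes that fell in WT it was above 0 for Col11a2 (0.44), Npnt (0.91), Npr3 (0.54), Snai2 (0.36) and Stc2 (0.58). No explanation of these differences was tested.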

How the results depend on the processing

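The number of genes higher and lower with TGF-β was 4497 and 3875, with 501 and 628 past 2-fold. With scaling by library size alone it was 2642 and 6056, with 377 and 900 past 2-fold. It came to 4286 and 4075, with 491 and 651 past 2-fold, with DESeq2's size factors in edgeR. With DESeq2 as the test it was 3798 and 4002, with 464 and 668 past 2-fold. It came to 4674 and 4383, with 584 and 884 past 2-fold, with CPM >1 in no fewer than 3 libraries as the filter. With no filter it was 4802 and 4781, with 753 and 1278 past 2-fold. It came to 4549 and 3820, with 484 and 551 past 2-fold, with only the 6 WT libraries in the fit. With the replicate number as a block it was 4543 and 3920, with 500 and 625 past 2-fold. Leaving out each WT library in turn gave 4291 to 4383 higher and 3629 to 3726 lower, with 498 to 512 and 608 to 642 past 2-fold. Same-numbered WT-SD and WT-TGF libraries did not deviate together (correlations of 0.041, -0.014 and 0.029), so the replicate numbers were not taken as pairs, and the block changed the call of no gene named here.

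List medians relative to all genes moved with the filter, which changes the genes tested, and for other settings the cause was not tested. With CPM >1 in at least 3 libraries the medians that moved were Other collagens (0.0342), Basement membrane (0.0413), Proteoglycans and their synthesis (0.47), Integrins (-0.16), Vasoactive receptors and RGS (-0.35), Cytosolic ribosomal proteins (0.26), Glycolysis and lactate (0.45), Interferon-stimulated genes (-1.08), Wnt pathway (-0.0122), Ion channels (-0.23), Cadherins, guidance and cell contact (-0.17), Mesangial and pericyte markers (0.024), Podocyte markers (-0.45) and Tubular and parietal epithelial markers (-0.97). Without a filter they were Fibrillar collagens (0.72), Other collagens (0.0566), Basement membrane (0.00217), Proteoglycans and their synthesis (0.36), Matrix proteases (-0.0854), Integrins (-0.25), Growth factor ligands (0.32), Growth factor receptors and binding proteins (-0.32), Vasoactive receptors and RGS (-0.41), Cytosolic ribosomal proteins (0.28), Glycolysis and lactate (0.46), Interferon-stimulated genes (-1.08), NF-kappaB, Toll-like receptors and adhesion (-0.31), Notch pathway (-0.0337), Wnt pathway (-0.18), Ion channels (-0.197), Cadherins, guidance and cell contact (-0.15), Circadian clock (-0.12), Mesangial and pericyte markers (0.44), Podocyte markers (-0.48), Glomerular endothelial markers (-0.599), Tubular and parietal epithelial markers (-0.64) and Macrophage markers (-0.37). With only the 6 WT libraries they were Wnt pathway (-0.0595) and AP-1, early and Kruppel-like genes (0.51). Of these, Basement membrane (CPM >1 in at least 3 libraries), Integrins (CPM >1 in at least 3 libraries), Basement membrane (no filter), Integrins (no filter), Circadian clock (no filter), Glomerular endothelial markers (no filter) changed sign. Leaving out single libraries, medians ranged from -0.77 to -0.72 (Interferon-stimulated genes), from 0.77 to 0.85 (Fibrillar collagens), from 0.51 to 0.61 (Elastic fibres and glycoproteins), from 0.22 to 0.27 (Cytosolic ribosomal proteins), from -0.0528 to 0.0403 (YAP and TEAD targets), from 0.12 to 0.41 (Mesangial and pericyte markers), from 0.53 to 0.61 (Smooth muscle contractile genes), from -0.26 to -0.21 (Lysosome and autophagy), from -0.0462 to -0.000757 (Basement membrane), from -0.0776 to -0.018 (Vasoactive receptors and RGS), from 0.32 to 0.42 (Glycolysis and lactate). The sign changed for YAP and TEAD targets without WT-SD replicate 3 (0.0403), YAP and TEAD targets without WT-TGF replicate 2 (0.037). 

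Of 177 named genes, 174 kept their direction and side of the threshold under every alternative that gave a value. Ltbp2 turned to -0.013 with library size alone, where Isg20 was 0.20 and not called, and Col11a2 was -0.20 and not called without WT-TGF replicate 1. A count of 3 in a WT library corresponds to 0.128 to 0.149 CPM, and differences below that are not detectable at this depth, which covers counting error only.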
